A study of Mus musculus with 3 samples.

Results

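The Piwi protein genes of the mouse are Piwil1, Piwil2 and Piwil4, which encode Miwi, Mili and Miwi2. They are described here as sources of small RNAs. A listed small RNA was taken as theirs when it matched a transcript of 1 of the 3 genes over its whole length, without a mismatch and on the gene's own chromosome. This gave 414 of the 2219118 distinct sequences in the deposited list, 330 from Piwil2, 58 from Piwil1 and 26 from Piwil4. Each of the 414 matched 1 annotated gene only, and none matched a Piwi gene from another chromosome.

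The list covers 3 small RNA libraries from testes of C57BL/6 mice, 1 per group. They are RNAs bound to Mili in Tdrd1 knockout testes 15 days after birth, RNAs bound to Tdrd1 in adult testes, and RNAs bound to Mili in adult wild-type testes. The knockout library thus differs from the wild-type one in age as well as genotype, and the sources used here do not say whether animals were pooled. The list gives each sequence once with a position on NCBI mouse build 37 (mm9) but without a library, a strand or a read number, so the groups cannot be set against each other and sequencing depth is unknown. All values below count distinct sequences over the 3 libraries together, with 1 list, no replicates and no test between conditions. Intervals in brackets are 95% intervals (exact binomial for shares, exact Poisson for numbers) and cover counting error only. Overlapping sequences from 1 place in an mRNA are not independent, so the true errors are larger.

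Piwi proteins are the germline branch of the Argonaute family. They hold piRNAs, small RNAs with U as their usual first base, which guide the silencing of transposons. piRNAs are cut from long single-stranded precursors, among them ordinary mRNAs, where the 3′ untranslated region (UTR) is a known source. Mili is present from the embryonic germ line to round spermatids, Miwi from pachytene spermatocytes to spermatids, and Miwi2 mainly in fetal and newborn male germ cells. Because the libraries were made from Mili and Tdrd1 complexes, small RNAs from Piwil2 are sequences of the mRNA for the very protein that was pulled down in 2 of the 3 libraries.

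The sequences below come from the deposited list and show what these small RNAs look like in the coding part of each mRNA. For each gene they start at the 5′ ends with the most listed sequences there, given by the longest sequence of at most 30 nt. They are written 5′ to 3′ with T for U, the first base in capitals, and mm9 positions.
Piwil2 exon 2, chr14:70826330-70826359, minus strand: Tagaaaaccagaagactccagcccaccact
Piwil2 exon 2, chr14:70826334-70826363, minus strand: Tgtttagaaaaccagaagactccagcccac
Piwil2 exon 2, chr14:70826332-70826360, minus strand: Ttagaaaaccagaagactccagcccacca
Piwil1 exon 8, chr5:129249122-129249148, plus strand: Tgcaacaaattggacggaattattaca
Piwil1 exon 16, chr5:129255878-129255904, plus strand: Tgaactgcaagatgggaggcgagctct
Piwil1 exon 4, chr5:129245395-129245420, plus strand: Ggtagtcggagccacatccaagtcac
Piwil4 exon 11, chr9:14520233-14520259, minus strand: Tgagacctggggattgcattttggaag
Piwil4 exon 3, chr9:14541296-14541320, minus strand: Caggacttcgaagagttgggtgtct
Piwil4 exon 4, chr9:14538885-14538913, minus strand: Ttcctctcagaaaagctggaccagaaggt

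The 3 Piwil2 sequences overlap and begin within 5 nt of each other, and their 5′ ends carried 6, 4 and 4 listed sequences that differ at the 3′ end. Another coding 5′ end of Piwil2, at nucleotide 1192 in exon 9, also carried 4 and is not shown because it lies further along the mRNA. The first Piwil1 sequence stands for 3 listed sequences of 25 to 27 nt and the second for 2 of 24 and 27 nt. The first Piwil4 sequence stands for 2, of 26 and 27 nt. The last sequence shown for Piwil1 and the last 2 for Piwil4 are the only ones listed at their 5′ ends, where many ends tied and the first along the mRNA were taken.

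All 3 Piwi genes had sense sequences, as did 71.0% of the 21951 annotated protein-coding genes. Piwil2 had by far the most for its length, 62.4 distinct sense sequences per kb of exon (55.9 to 69.5). This placed it 678th in density and 647th in number among the protein-coding genes. Piwil1 had 13.3 per kb (10.1 to 17.2) and ranked 5338th in density. Piwil4 had 4.83 per kb (3.15 to 7.07) and ranked 9418th. The median of all protein-coding genes was 2.89 per kb, or 7.53 among the 15575 genes with at least 1 sense sequence. Thus Piwil4 lay above the first median and below the second. The 3 intervals do not overlap. Piwil2 stood 4.69 times as high as Piwil1, and Piwil1 2.76 times as high as Piwil4. Counted on the longest coding transcript, Piwil2 had 66.7 per kb (59.7 to 74.3), Piwil1 14.4 (10.97 to 18.7) and Piwil4 7.87 (5.14 to 11.5). The merged exons of the 4 annotated Piwil4 transcripts are longer (5385 bp) than that transcript (3304 nt). On this scale Piwil1 stood 1.84 times as high as Piwil4, with intervals that overlap, while the interval of Piwil2 stayed apart from both.

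**Figure D1:**
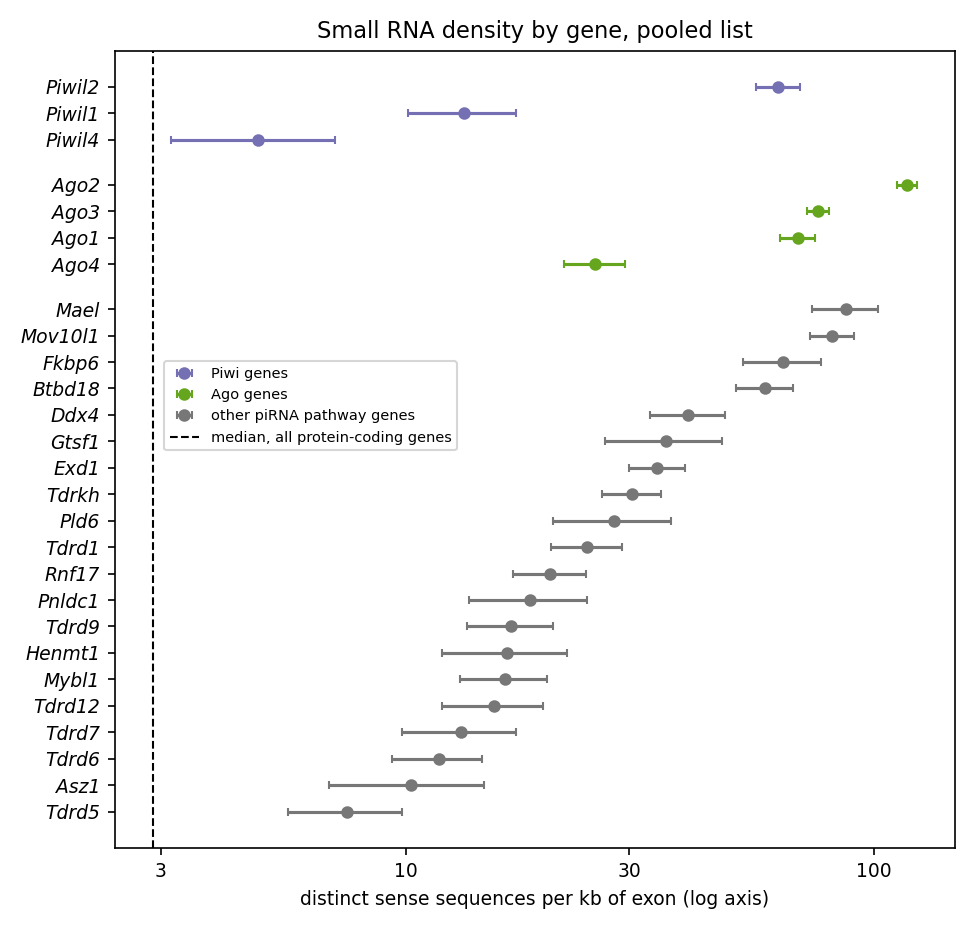
Distinct sense sequences per kb of exon (log axis) for the Piwi genes, the Ago genes and other genes of the piRNA pathway, with 95% Poisson intervals from counting error only. The dashed line is the median of all protein-coding genes, 2.89 per kb. Piwil2 sits at 62.4 per kb, Piwil1 at 13.3 and Piwil4 at 4.83.

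Set among 20 other genes of the piRNA pathway, Piwil2 was near the top and Piwil4 had the lowest value. The 20 genes all had sense sequences, with a median of 22.4 per kb and a range of 7.50 to 87.1. Of these, 17 lay below Piwil2, 4 below Piwil1 and 0 below Piwil4. The 3 above Piwil2 were Mael, whose product is needed for transposon silencing in the male germ line (87.1 per kb), Mov10l1, the gene of the RNA helicase that feeds precursors into piRNA production (81.5), and the cochaperone gene Fkbp6 (63.9). The interval of Fkbp6, 52.6 to 76.9, holds the value of Piwil2. The 3 lowest were the Tudor-domain genes Tdrd5 (7.50) and Tdrd6 (11.8) and Asz1 (10.3), which encodes a protein of the germ granules between mitochondria. The intervals of Tdrd5 (5.60 to 9.83) and Asz1 (6.87 to 14.7) overlap that of Piwil4. On the longest coding transcripts 0 of the 20 genes lay below Piwil4, the lowest being Tdrd6 with 11.8 per kb (9.37 to 14.6). Tdrd1, whose product was the other protein pulled down and the one removed in the knockout, had 24.4 per kb (20.5 to 28.96). It therefore lay between Piwil2 and Piwil1.

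The Ago genes encode the other branch of the family, the Argonaute proteins that carry microRNAs. Their mRNAs had a median of 72.3 sense sequences per kb. Ago2, the gene of the Argonaute that can cut its target, had 117 per kb, Ago3 76.0, Ago1 68.7 and Ago4 25.3. Only Ago4 lay below Piwil2 in density, and all 4 lay above Piwil1 and Piwil4. In the longest coding transcripts of these 4 genes, between 83.5% (Ago4) and 97.9% (Ago3) of sequences lay in the 3′ UTR, which makes up 56.3% and 81.7% of those transcripts. The share starting with U was 75.6 to 79.6% in the Ago genes, higher in value than in the 3 Piwi genes described below, although the interval of Piwil4 reaches past it. The RNA of the immunoprecipitates came from whole testes, so more germ cells of a stage and more transcript per cell cannot be told apart. Markers of germ cells were represented in the list in all 5 cases (40.1 to 165 per kb). For Sertoli cells the 3 markers had 0 to 1.93 per kb, with Rhox5 at 0 sense sequences. The Leydig markers were mixed. Cyp17a1 had 0 sense sequences and Cyp11a1 0.208 per kb, but Insl3 had 11.2 per kb (4.52 to 23.2, 7 sequences). Insl3 thus lay above the median of all protein-coding genes and above Piwil4 in value.

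No antisense sequence matched any of the 3 Piwi genes. With 0 antisense, 3 counts would still allow an antisense share of up to 0.909% for Piwil2, 5.17% for Piwil1 and 11.5% for Piwil4. The absence is common among mRNAs. Of the 9334 protein-coding genes with at least 20 sense sequences, 56.4% had 0 antisense sequences. Most of these genes had fewer sense sequences than Piwil2, which ranked 647th in number. The share among genes with a number like that of Piwil2 was not taken. Over all protein-coding genes 3.83% of matches were antisense. Of the other pathway genes 8 of 20 had at least 1 antisense sequence, and of the Ago genes 3 of 4. A sense and an antisense piRNA whose 5′ ends overlap by 10 nt are the mark of the amplification cycle, and with no antisense member there were 0 such pairs in each gene. Partners with mismatches or at other places in the genome were not searched.

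The small RNAs followed the exons. The matches of Piwil2 spanned 56.9 kb of chromosome 14, from 70772298 to 70829184 on the minus strand (mm9), and 330 of the 349 listed sequences in that span matched its exons (94.6%, 91.6 to 96.7%). Its exons make up 9.29% of the span. A further 3 matched Gm24890, a small nuclear RNA gene within the Piwil2 locus, and 16 matched no annotated exon. That is 62.4 per kb within the exons against 0.310 per kb outside them. For Piwil1 58 of 60 listed sequences between 129245395 and 129261268 of chromosome 5 matched exons, and 2 did not. For Piwil4 26 of 30 between 14506259 and 14545118 of chromosome 9 did, and 4 did not. The strand of the sequences outside exons was not determined.

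Sequences that cross an exon junction could hardly be seen, since each listed interval is as long as its sequence and so lies in 1 uninterrupted stretch of genome. In the longest coding transcripts a stretch of 27 nt would cross a junction at 11.7% of positions in Piwil2, 13.7% in Piwil1 and 15.1% in Piwil4. Crossing sequences numbered 5 of 328, 0 of 58 and 1 of 26. The 5 in Piwil2 and the 1 in Piwil4, which is the exon 4 sequence printed last above, have at most 2 nt on the shorter side of the junction. Such short overhangs can match the intron as well. The densities therefore leave out small RNAs that span a junction.

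Within the mRNA, the 3′ UTR was covered more densely than the coding sequence in Piwil2 and Piwil1. In both genes the 3′ UTR lies within the last exon. The small RNAs left out at junctions therefore lower the coding and 5′ UTR values but not those of the 3′ UTR. The densities were not corrected for this, so the differences between regions are overstated by an unknown amount. In Piwil2 54.8% of sequences (49.3 to 60.3%) lay in the 3′ UTR, which makes up 36.7% of its longest coding transcript. Among the 840 genes with 220 to 495 sense sequences the median share on that transcript was 70.3%, and 36.9% of genes were at or below Piwil2. For Piwil1 the median of genes with 39 to 87 sense sequences was 32.3%, and 69.8% were at or below it. The 3′ UTR of Piwil2 carried 100.4 sequences per kb (86.3 to 116), its coding sequence 43.9 (36.6 to 52.2) and its short 5′ UTR 96.4 (58.1 to 151). In Piwil1 54.3% (41.5 to 68.3%) lay in the 3′ UTR, 29.01% of its transcript. The 3′ UTR of Piwil1 carried 26.6 per kb (18.1 to 37.8) and its coding sequence 10.4 (6.87 to 15.2), and 0 sequences matched the 262 nt of 5′ UTR. In the longest coding transcript of Piwil4 19 of 26 sequences (73.1%) lay in the coding sequence, which is 77.1% of its length, 4 (15.4%) in the 5′ UTR and 3 (11.5%) in the 3′ UTR. Averaged over the coding transcripts each sequence matches, the coding share was 80.8% (60.6 to 93.4%) and the 5′ UTR share 7.69%. The 5′ UTR of Piwil4 carried 22.6 per kb (6.16 to 57.9), the coding sequence 7.46 (4.49 to 11.6) and the 3′ UTR 5.17 (1.07 to 15.1), with overlapping intervals, so that a difference between its regions was not detectable.

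Sequences were unevenly spread along Piwil2. Of the 50 windows of 100 nt of the Piwil2 transcript (4916 nt, 23 exons), 5 held no 5′ end and 12 held 10 or more sequences, 70.7% of the total. The richest windows, at nucleotides 3701 to 3800 and 4301 to 4400 of the mRNA, held 34 sequences each, and 27 lay at 3901 to 4000. All 3 are in the 3′ UTR. The richest window of the coding sequence, 301 to 400, held 21. By exon, the last exon (1960 nt, mostly 3′ UTR) held 183 sequences, or 93.4 per kb. The highest density was in exon 2, which contains the start of the reading frame, with 39 sequences in 237 nt (165 per kb), and exon 20 had 0. All Piwil2 sequences together covered 45.7% of the transcript in 59 separate blocks. The largest block, 115 nt at 4359 to 4473, held 35 sequences.

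Piwil1 and Piwil4 were covered thinly. In Piwil1 19 of 41 windows were empty and sequences covered 19.97% of the transcript. Its richest windows, at 3201 to 3300 and 3701 to 3800 in the 3′ UTR, had 8 sequences each. Exon 8 in the coding sequence had 7 sequences in 81 nt, and the last exon had 32. In Piwil4 17 of 34 windows were empty and 16.1% of the transcript was covered. Its richest window, 901 to 1000 in the coding sequence, had 4 sequences, which start at 4 different places in exon 7 and all begin with U.

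**Figure D2:**
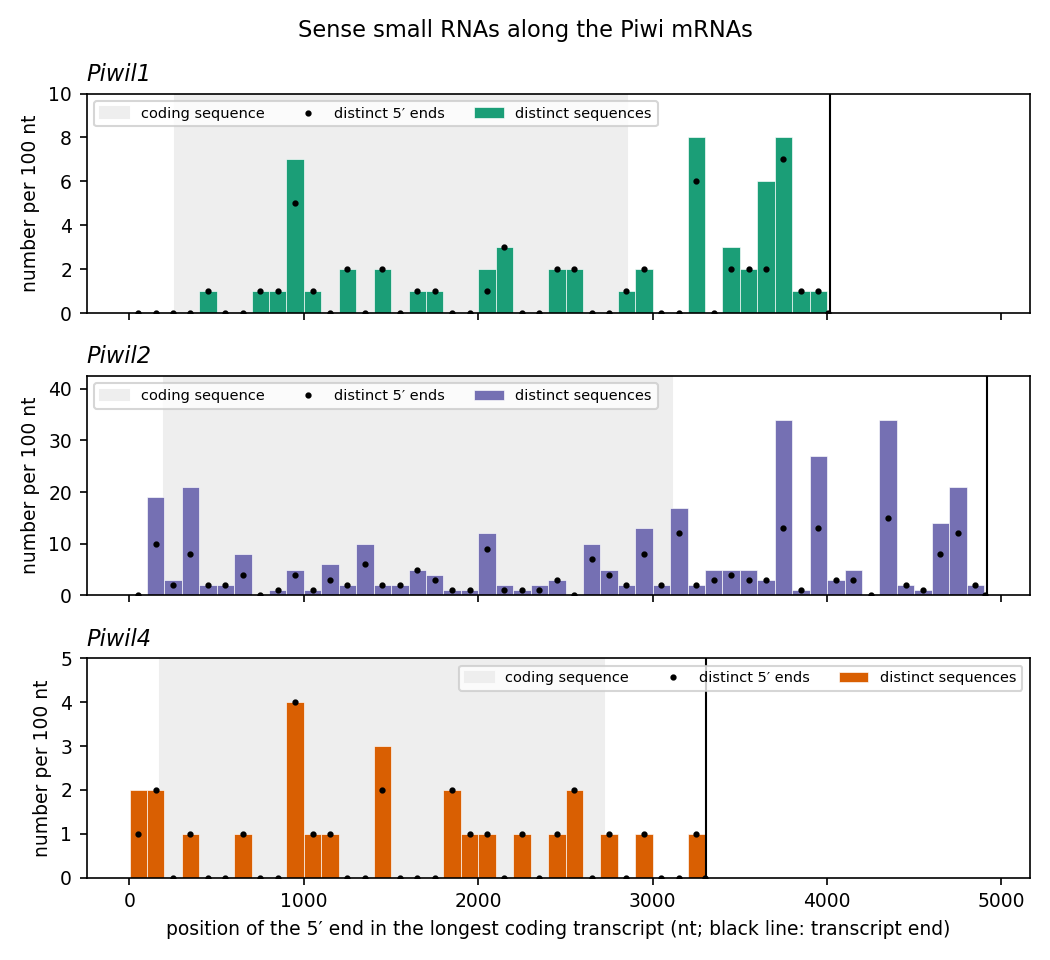
Number of distinct sense sequences (bars) and of distinct 5′ ends (points) per window of 100 nt along the longest coding transcript of each Piwi gene, with the coding sequence shaded and the transcript end as a black line. The vertical scales differ. Piwil2 reaches 34 sequences in the 3′ UTR, Piwil1 8 and Piwil4 4.

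Single 5′ ends were often listed with several 3′ ends. The 330 Piwil2 sequences had 199 distinct 5′ ends, 1.66 sequences each, and 245 distinct 3′ ends. Of the 199, 75 were listed with 2 or more sequences and 33 with 3 or more. Among protein-coding genes with at least 20 sense sequences the median was 1.29 per 5′ end, and 93.3% of genes had a value at or below that of Piwil2. Genes with more sequences have more per 5′ end, and among the 840 genes with 220 to 495 sense sequences the median was 1.51 and 85.6% were at or below Piwil2. The most used 5′ end, at nucleotide 3763 in the 3′ UTR, had 9 sequences of 20 to 30 nt and starts with G. The ends beside it, at 3762 and 3764, had 4 and 5 sequences and start with U. Piwil1 had 1.23 sequences per 5′ end with at most 5 at 1 end (nucleotide 3621, 3′ UTR), and Piwil4 had 1.08 with at most 2.

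U was the most common first base in all 3 genes, well above its share of the mRNA. Among sequences of 24 to 32 nt it started 206 of 326 in Piwil2 (63.2%, 57.7 to 68.4%), 32 of 55 in Piwil1 (58.2%, 44.1 to 71.3%) and 16 of 25 in Piwil4 (64.0%, 42.5 to 82.0%). U made up 25.2%, 22.4% and 26.2% of the longest coding transcripts of Piwil2, Piwil1 and Piwil4. At position 2 of the Piwil2 sequences U stood at 17.8%. The intervals of the 3 genes overlap, and that of Piwil2 holds the 67.7% found over the sense sequences of all other protein-coding genes. Among the 840 genes with 220 to 495 sense sequences, however, the median was 72.4%, above the interval of Piwil2. Of these 840 genes, 151 were at or below Piwil2. Genes with a number of sequences like that of Piwil1 or Piwil4 had medians of 63.1% and 64.0%, each within the interval of the gene concerned. A followed as first base with 18.1% in Piwil2 and 23.6% in Piwil1, whereas in Piwil4 C started 5 of 25 sequences and A 4. A at position 10, the second mark of the amplification cycle, was found in 32.2% of Piwil2 sequences (27.2 to 37.6%), 34.5% of Piwil1 (22.2 to 48.6%) and 28.0% of Piwil4 (12.1 to 49.4%). The value over other protein-coding genes was 32.1%. A made up 25.7% of the longest coding transcript in Piwil2, below its interval. In Piwil1 and Piwil4 it made up 25.1% and 25.4%, within theirs.

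In Piwil2, U was more common at 5′ ends with more than 1 sequence than at the others. Of such ends, 55 of 75 started with U (73.3%, 61.9 to 82.9%), against 55 of 124 ends with 1 sequence (44.4%, 35.4 to 53.5%). The intervals do not overlap. In Piwil1 6 of 7 ends with several sequences and 17 of 40 with 1 started with U. In Piwil4 the numbers were 2 of 2 and 13 of 22. Both kinds of ends were above the U share of the mRNA in Piwil2 and Piwil1, although in Piwil4 the ends with several sequences are too few to tell. With each 5′ end counted once, the share of U was 55.1% in Piwil2, 51.1% in Piwil1 and 62.5% in Piwil4. The share also varied along Piwil2. It was 91.2% in the window at 4301 to 4400, where U makes up 39.0% of bases, and 35.3% at 3701 to 3800, where U makes up 23.0%. By region it was 68.0% (60.6 to 74.8%) in the 3′ UTR of Piwil2 and 58.6% (49.6 to 67.2%) in its coding sequence, with overlapping intervals.

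**Figure D3:**
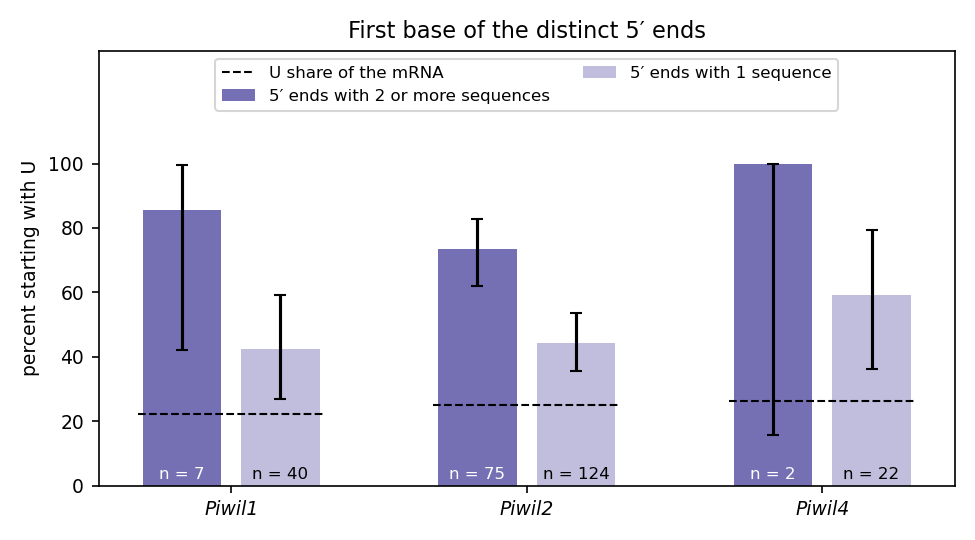
Percent of distinct 5′ ends that start with U, for ends listed with 2 or more sequences (dark bars) and with 1 sequence (light bars), with exact 95% intervals from counting error only. The dashed lines are the U share of each mRNA. In Piwil2 the bars stand at 73.3% and 44.4%, above the line at 25.2%.

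Small RNAs of Piwil1 were shorter than those of the other Piwi genes. Their mean length was 26.3 ± 1.42 nt (SD over 58 sequences) with 26 nt the most common length, against 27.3 ± 1.72 nt (330 sequences) in Piwil2 and 27.5 ± 1.77 nt (26 sequences) in Piwil4, both with 27 nt as the most common. Lengths of 29 to 32 nt made up 2 of 58 sequences in Piwil1 (3.45%, 0.420 to 11.9%), but 80 of 330 in Piwil2 (24.2%, 19.7 to 29.2%) and 8 of 26 in Piwil4 (30.8%, 14.3 to 51.8%). The interval of Piwil1 does not meet those of the other 2 genes. With each 5′ end counted once the shares were 3.19%, 23.7% and 33.3% in Piwil1, Piwil2 and Piwil4. Within Piwil1 the mean was 26.1 nt in the coding sequence and 26.4 nt in the 3′ UTR, so the short lengths were found in both parts.

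Few other genes had so small a share of long sequences as Piwil1. Of the 9334 protein-coding genes with at least 20 sense sequences 45 were at or below its value, itself included (0.482%), and among the 3350 genes with 39 to 87 sense sequences, a number like its own, 10 were, again with Piwil1 itself. The median of the 9334 genes was 22.0%, and Piwil2 and Piwil4 lay at or above 63.5% and 90.2% of them. Over the sense sequences of all other protein-coding genes the mean length was 27.4 ± 1.60 nt, with 23.3% of 29 to 32 nt. Which libraries the Piwil1 sequences came from is not recorded in the list. The gel step named in the labels selected RNAs of 28 to 30 nt for all 3 libraries.

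**Figure D4:**
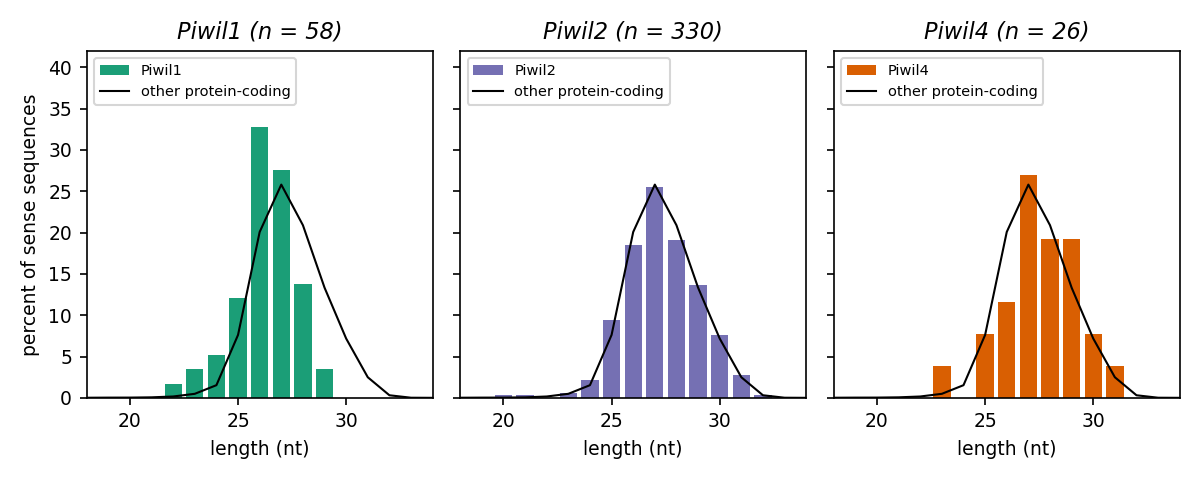
Percent of sense sequences by length (nt) for Piwil1, Piwil2 and Piwil4 (bars) and for all other protein-coding genes (black line). Piwil1 peaks at 26 nt with 3.45% at 29 nt and above, while Piwil2 and Piwil4 peak at 27 nt.

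The base after the 3′ end and the spacing of neighbours were also examined. piRNAs cut one after the other from a precursor can leave U after a 3′ end and the next 5′ end beside it. Both signs are lost where 3′ ends are trimmed after the cut, which the list cannot show. The values therefore describe the listed ends, and the manner of cutting was not tested. In Piwil2 U followed 82 of 328 sequences in the mRNA (25.0%, 20.4 to 30.1%), where U is 25.2% of the transcript. With each 3′ end counted once it was 24.3%. For Piwil1 the share was 17.2% (8.59 to 29.4%) and for Piwil4 26.9% (11.6 to 47.8%), and both intervals hold the U share of their mRNA. Of 243 distinct 3′ ends in Piwil2, 8 had a listed 5′ end at the next base, while distances of 2 to 20 nt gave 7.16 ± 2.12 (SD over the 19 distances) with a highest value of 10. Immediate neighbours thus did not stand out. Piwil1 and Piwil4 had 0 such neighbours, at 54 and 25 distinct 3′ ends.

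The mRNAs share little sequence, so the 3 genes could be told apart. The longest run common to a Piwil2 transcript and 1 of the others was 14 nt on the same strand, shorter than the shortest listed sequence of 18 nt. Piwil1 and Piwil4 transcripts shared a run of 22 nt, and 0 listed sequences matched both.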

How the data were processed

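Small RNAs from 3 immunoprecipitates of mouse testis were deposited as 1 list of 2219118 sequences, each with a chromosome, start and end, per the file headers on NCBI mouse build 37 (mm9 per the submitters' processing notes). The deposited list holds neither counts nor signal, and its aligner and settings were not given in the sources used here. All listed intervals had the length of their sequence.

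Whole sequences were looked up, as listed and as reverse complements, in GENCODE vM21 transcripts (annotated on GRCm38, so matched by sequence and not by position), with an exact seed of 18 nt, and kept where the gene lies on the listed chromosome. Recovery was tested on simulated data. Density is the number of distinct sense sequences for each kb of merged exons. UTR and coding shares use the midpoint of a sequence, averaged over the coding transcripts it matches. Densities by region, windows, exons and 3′ ends use the longest coding transcript, and percentiles use protein-coding genes with at least 20 sense sequences. Shares carry Clopper-Pearson intervals.

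With 1 pooled list no comparison of the groups was possible. The members, gene lists and measures were chosen with earlier results of these data known. Genes were named by a fixed rule (members, Ago genes, the 3 highest and 3 lowest of 20 pathway genes, Tdrd1). The comparison with genes of a like number of sequences was added after seeing the values. Python 3.11.15, numpy 2.4.6, pandas 2.3.3, scipy 1.17.1 and numba 0.67.0 were used.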

Additional observations from a re-analysis of the deposited data

How the results depend on the processing

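Of 74 alternative values 70 stayed within their counting interval (within 1 SD for mean lengths, within 1.5 times for list medians), 4 moved further, and the order Piwil2, Piwil1, Piwil4 in density held under each of the 4 alternatives. Counting each 5′ end once gave 37.6 per kb for Piwil2, 43.1 per kb for the median of the Ago genes and 55.1% U as first base in Piwil2. On the longest coding transcript Piwil4 had 7.87 per kb, and its interval then overlaps that of Piwil1. The 0 antisense sequences and 0 pairs stayed at 0 by construction. The densities of the 3 Piwi genes were likewise bound to stay the same with sequences matching 1 gene only, since each of their sequences matches 1 gene. Mean lengths could hardly move by 1 SD over sequences, so those values say little about robustness. No paired analysis was possible because each group has 1 library and the list names none. Piwil4, with 26 sequences, leaves wide intervals for every share, and abundance could not be judged without read numbers.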
